A study of Mus musculus with 8 samples.

Results

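The 10 genes described here encode TGF-beta ligands (Tgfb1, Tgfb3), their receptors (Tgfbr1, Tgfbr2, Tgfbr3), signalling SMAD proteins (Smad2, Smad3), the inhibitory Smad7 and the nuclear repressors Ski and Skil. They were chosen by name as core genes of this pathway, with earlier results of these data known. Each was found by symbol among the 22180 genes with a single symbol on the array. All 10 were measured, each by 1 transcript cluster, and all passed the filter on dim genes that left 13508 genes for testing. There were 4 groups of splenic T cells sorted as CD4+CD25-, namely CD45RBhigh and CD45RBlow cells of wild-type C57BL/6 mice and the same sorted populations of CCR2-/- mice on that background, 2 arrays each, 8 in all. The mice were aged 6 to 8 weeks. All cells, controls included, had been activated on plates that carried anti-CD3 and anti-CD28, for 48 h by the protocols of the samples and for 2 h by the design text of the series. CCR2 is the receptor for the chemokine CCL2, and CD45RB is a form of the phosphatase CD45 that naive T cells carry at a high level and antigen-experienced T cells at a lower one. The labels name no separate mice or cultures behind the arrays, so each p-value rests on how far these arrays spread.

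TGF-beta is secreted in a latent form and released outside the cell, partly by integrins such as the one that contains the Itgb8 product. The active ligand binds the type II receptor (Tgfbr2), which phosphorylates the type I receptor (Tgfbr1), and the type III receptor betaglycan (Tgfbr3) presents ligand to them. The type I receptor phosphorylates SMAD2 and SMAD3, which enter the nucleus with SMAD4, while SMAD7, SKI and SnoN (Skil) restrain the response. In T cells the pathway limits proliferation and helper differentiation and takes part in inducing the regulatory factor Foxp3.

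The arrays were alike in depth of signal, with medians from 4.92 to 5.05 on the log2 scale and correlations across clusters from 0.984 to 0.994 within groups. Every level and difference below is on the log2 scale and relative to the array's other transcripts. Ccr2 was dim (27.0th to 53.5th percentile of all clusters), at 4.26 to 4.61 on wild-type arrays and slightly higher, at 4.62 to 5.15, on CCR2-/- arrays. Which exons its probes cover is not known here, so it does not check the genotype. Cd4 lay between the 98.2nd and 98.7th percentile of all clusters on every array. The CD45RB sort cannot be checked through Ptprc (12.17 to 12.47), whose cluster is not known to separate the forms of CD45. Xist read 4.45 to 5.02 in replicate 1 of every group but 11.7 to 12.1 in replicate 2, and Kdm5d, a Y-linked gene, 8.83 to 9.13 against 7.58 to 7.78. The arrays of a group thus did not come from the same cells, and their spread is not purely technical. Differences are therefore also given within each replicate number.

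Between the sorted subsets, 2 of the 10 genes passed and both were higher in CD45RBlow cells, the coreceptor gene Tgfbr3 (1.60-fold) and the repressor gene Ski (1.49-fold). Among all tested genes 3.03% passed in this comparison, 1.1% higher and 1.93% lower. The type I receptor gene Tgfbr1 was also higher on every CD45RBlow array and the type II receptor gene Tgfbr2 lower on every one, but Tgfbr1 passed only with a term for the replicate number and Tgfbr2 in neither fit. Values of CD45RBhigh and CD45RBlow arrays did not overlap for 4 of the 10 genes (Tgfbr1, Tgfbr2, Tgfbr3 and Ski), against 14.3% of all tested genes. Neither ligand nor any of Smad2, Smad3 and Smad7 passed. The median difference of the 10 genes was 0.20, beside -0.01 over all genes tested. Of the 10 differences, 8 were above 0, beside 47.9% over all genes tested. Among these 8, those of Smad2 (0.03), Tgfb1 (0.07) and Tgfb3 (0.10) were close to 0. The list was drawn up with earlier results known, so these shares describe the list and do not test it. The test was limma's moderated test over all 8 arrays, adjusted by Benjamini-Hochberg over all genes tested, with a threshold of 0.05.

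The sequences before the annotated starts of Ski, Tgfbr1 and Tgfbr2 are printed because Ski and Tgfbr1 lay higher, and Tgfbr2 lower, on all CD45RBlow arrays. RefSeq entries of build GRCm38.p6 matched 5 of the 10 genes (these 3, Smad3 and Tgfb1), and Tgfbr1 has 2 annotated starts, of which the upstream one is shown. Each run holds the 250 bases before the start, 5′ to 3′ on the gene's strand, and capitals mark GC boxes (GGGCGG on either strand, the core bound by Sp1-family factors) and CAGAC on either strand, a short form of the SMAD box. The positions are chr4:155222536-155222785 on the minus strand for Ski, chr4:47352972-47353221 on the plus strand for Tgfbr1 and chr9:116175364-116175613 on the minus strand for Tgfbr2.
Ski: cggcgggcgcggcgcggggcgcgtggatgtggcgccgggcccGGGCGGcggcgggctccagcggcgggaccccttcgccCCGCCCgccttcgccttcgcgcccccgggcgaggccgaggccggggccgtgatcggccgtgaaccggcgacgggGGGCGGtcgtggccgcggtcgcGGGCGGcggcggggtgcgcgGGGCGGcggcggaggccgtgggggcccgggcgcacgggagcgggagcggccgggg
Tgfbr1: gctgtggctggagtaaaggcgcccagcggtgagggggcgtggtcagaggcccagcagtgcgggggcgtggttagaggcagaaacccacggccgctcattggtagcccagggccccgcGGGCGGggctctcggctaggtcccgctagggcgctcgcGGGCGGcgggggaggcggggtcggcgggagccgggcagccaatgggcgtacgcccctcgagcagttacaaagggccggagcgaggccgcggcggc
Tgfbr2: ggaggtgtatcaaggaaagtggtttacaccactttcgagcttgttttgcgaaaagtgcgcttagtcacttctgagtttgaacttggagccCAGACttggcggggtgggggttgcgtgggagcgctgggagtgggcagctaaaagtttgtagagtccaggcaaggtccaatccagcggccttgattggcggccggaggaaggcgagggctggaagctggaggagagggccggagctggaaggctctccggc
The Ski window held 5 GC boxes at a GC content of 87.6%, the Tgfbr1 window 2 at 74.8%, and the Tgfbr2 window 0 at 58.4%. The windows of Tgfb1 and Smad3, which did not pass between subsets, held 5 and 2. GC boxes were present in 32.7% of all 32851 promoter windows of this length. The Tgfbr2 window held 1 CAGAC and the other 2 printed windows held 0, against 42.2% of all windows with at least 1. The window of the downstream Tgfbr1 start held 1 CAGAC and 0 GC boxes. The palindromic SMAD box GTCTAGAC and the AP-1 site TGANTCA were in none of the 6 windows of the 5 genes, and in 0.167% and 6.75% of all windows. No printed window held both a GC box and CAGAC, so their marks do not overlap. Such matches describe the letters and show no binding.

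Tgfb1, the main TGF-beta ligand of lymphocytes, was bright on all arrays, between the 97.2nd and 98.0th percentile of all clusters. Its log2 levels were 11.12 and 11.24 in wild-type CD45RBhigh cells, 11.32 and 11.35 in wild-type CD45RBlow cells, 11.43 and 11.24 in CCR2-/- CD45RBhigh cells, and 11.29 and 11.35 in CCR2-/- CD45RBlow cells. The whole spread was 0.31, and the CCR2-/- CD45RBhigh arrays spanned the values of both CD45RBlow groups. The subset difference was 0.07 (95% confidence interval -0.12 to 0.26, adjusted p = 0.737). Platelets are another rich source of this transcript, and 5 of the 6 listed platelet markers were on the array, with a mean level of 4.26 to 4.46 on all arrays, under every array's median. Only 1 of the 5, Itga2b, was bright enough to be tested, and it did not pass. Pf4 and Ppbp, their defining genes, lay at or under the 33.4th percentile throughout. The part of platelets in the Tgfb1 values was not tested.

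Tgfb3, a ligand isoform linked to pathogenic helper T cells, was dim, between the 40.6th and 50.5th percentile. Its levels ran from 4.59 to 5.07, with the highest value in CCR2-/- CD45RBlow replicate 2 and the lowest in CCR2-/- CD45RBhigh replicate 1. The groups overlapped and the subset difference was 0.10 (interval -0.17 to 0.37, adjusted p = 0.744). The sign of that difference turned between genotypes, at -0.06 in wild type and 0.26 in CCR2-/- cells, with an interaction of 0.32 (SE 0.23, adjusted p = 1).

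Tgfbr3, the betaglycan gene, had log2 levels of 7.25 and 6.81 in wild-type CD45RBhigh cells, 7.88 and 7.87 in wild-type CD45RBlow cells, 7.71 and 7.31 in CCR2-/- CD45RBhigh cells, and 8.17 and 7.89 in CCR2-/- CD45RBlow cells. All 4 CD45RBlow arrays were above all 4 CD45RBhigh arrays, the nearest values being 7.87 and 7.71. It rose by 0.68 (SE 0.14, interval 0.36 to 1.01, adjusted p = 0.0497), just under the threshold. The order of group means was wild-type CD45RBhigh (7.03 ± 0.31), CCR2-/- CD45RBhigh (7.51 ± 0.28), wild-type CD45RBlow (7.88 ± 0.01) and CCR2-/- CD45RBlow (8.03 ± 0.20; mean ± SD, n = 2 each). The 2 CD45RBlow groups differed by 0.15 (SE 0.20, adjusted p = 1), which is less than the SE. Both CCR2-/- CD45RBlow values lay above both wild-type CD45RBlow values, the nearest being 7.89 and 7.88. The gap between subsets was present in each pair of arrays, at 0.64 and 1.06 in wild-type replicates 1 and 2 and at 0.45 and 0.57 in CCR2-/- replicates 1 and 2. With each array left out in turn, the Tgfbr3 difference stayed between 0.57 and 0.79, but the call held only without CCR2-/- CD45RBhigh replicate 1 (adjusted p = 0.0347) and was lost without any other array (adjusted p from 0.0658 to 0.209). It was also lost with arrays scaled to a common median (adjusted p = 0.0556) or with no filter on dim genes (adjusted p = 0.0631), while it held with the replicate number as a block (adjusted p = 0.0121).

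Tgfbr1, the type I receptor kinase, was at 8.09 and 7.85 in wild-type CD45RBhigh cells, 8.83 and 8.34 in wild-type CD45RBlow cells, 8.20 and 7.73 in CCR2-/- CD45RBhigh cells, and 8.78 and 8.29 in CCR2-/- CD45RBlow cells. The lowest CD45RBlow value, 8.29, lay just over the highest CD45RBhigh value, 8.20, and replicate 2 was lower than replicate 1 in every group, by 0.24 to 0.49. The subset difference was 0.59 (SE 0.17, interval 0.18 to 1.0, adjusted p = 0.129). With the replicate number as a block the SE was 0.08 and the gene passed (adjusted p = 0.0113), in a fit that called 5.61% of all genes. Within replicate numbers the gap was 0.74 and 0.48 in wild type and 0.59 and 0.56 in CCR2-/- cells. The CD45RBhigh groups had the same mean to 2 decimals, 7.97 (± 0.17 in wild type, ± 0.33 in CCR2-/- cells). The CD45RBlow means, 8.58 ± 0.35 and 8.54 ± 0.35 (SD, n = 2 each), differed by -0.05 between genotypes (SE 0.25), within their spread.

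Tgfbr2, the type II receptor that binds ligand first, ran the other way. Its levels were 7.96 and 8.00 in wild-type CD45RBhigh cells, 7.39 and 7.87 in wild-type CD45RBlow cells, 8.34 and 8.19 in CCR2-/- CD45RBhigh cells, and 7.54 and 7.90 in CCR2-/- CD45RBlow cells. Every CD45RBlow array was below every CD45RBhigh array, though the nearest values, 7.90 and 7.96, were close. The subset difference was -0.45 (SE 0.13, interval -0.76 to -0.14), and it did not pass (adjusted p = 0.129, and 0.0815 with the replicate block). The gap was wider in replicate 1 (-0.57 in wild type, -0.81 in CCR2-/- cells) than in replicate 2 (-0.13 and -0.29). From high to low, the group means were 8.27 ± 0.11 (CCR2-/- CD45RBhigh), 7.98 ± 0.03 (wild-type CD45RBhigh), 7.72 ± 0.25 (CCR2-/- CD45RBlow) and 7.63 ± 0.34 (wild-type CD45RBlow; SD, n = 2 each). The genotypes differed by 0.29 in CD45RBhigh and 0.09 in CD45RBlow cells (SE 0.19), and neither difference passed (adjusted p = 1).

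**Figure D1:**
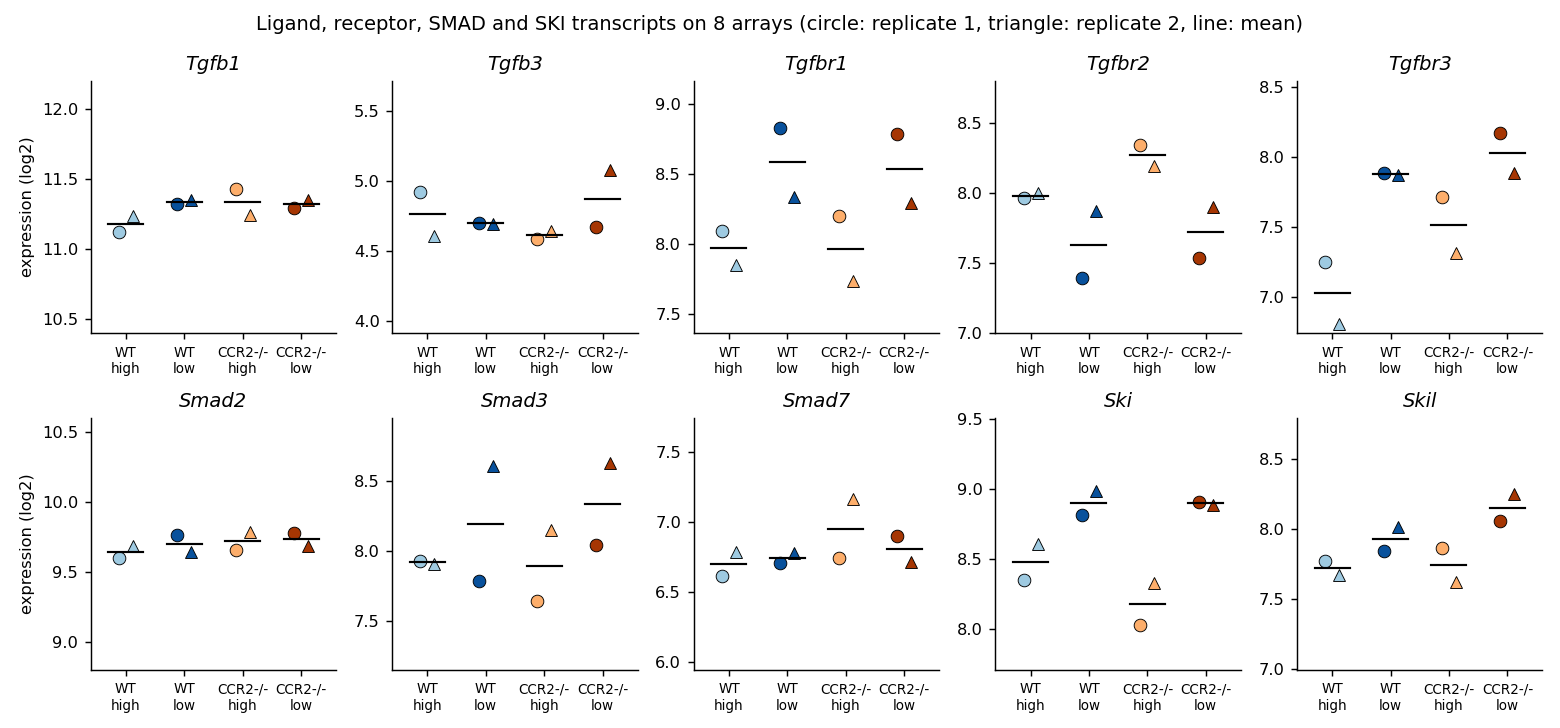
Log2 expression (vertical axis, the same span of 1.8 units in each panel) of the 10 genes in the 4 groups, with circles for replicate 1, triangles for replicate 2 and lines for group means. Tgfbr1, Tgfbr3 and Ski are higher and Tgfbr2 is lower on all 4 CD45RBlow arrays, while Tgfb1 and Smad2 vary by 0.31 and 0.18 over all 8 arrays.

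The receptor genes shifted unequally between subsets, a contrast singled out after its values were seen and not tested. The change of Tgfbr1 from CD45RBhigh to CD45RBlow exceeded that of Tgfbr2 by 1.31 and 0.61 in wild-type replicates 1 and 2, and by 1.39 and 0.85 in CCR2-/- replicates 1 and 2. The change of Tgfbr3 exceeded that of Tgfbr2 by 1.21 and 1.19 in wild type and by 1.26 and 0.87 in CCR2-/- cells. The sign was the same in each of the 4 pairs of arrays for both gene pairs. It had to be, since Tgfbr1 and Tgfbr3 were higher and Tgfbr2 lower in CD45RBlow cells in every pair. The shared sign therefore adds no separate support.

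Smad2 and Smad3, the SMADs that carry the TGF-beta signal, did not pass. Smad2 varied least of the 10 genes, from 9.60 to 9.78 over all arrays, with a subset difference of 0.03 (interval -0.15 to 0.22, adjusted p = 0.882). Smad3 was at 7.93 and 7.90 in wild-type CD45RBhigh cells, 7.79 and 8.60 in wild-type CD45RBlow cells, 7.64 and 8.15 in CCR2-/- CD45RBhigh cells, and 8.04 and 8.63 in CCR2-/- CD45RBlow cells. Its 2 highest arrays were the CD45RBlow arrays of replicate 2, and the groups overlapped. The Smad3 difference was 0.36 (SE 0.22, interval -0.15 to 0.87, adjusted p = 0.457), and within pairs of arrays it was -0.14 and 0.70 in wild type and 0.40 and 0.48 in CCR2-/- cells. A Smad3 difference of the size seen for Tgfbr3 (0.68) lies inside this interval. Replicate 2 of Smad3 exceeded replicate 1 by 0.51 to 0.82 in 3 groups and was 0.03 below it in wild-type CD45RBhigh cells.

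Smad7, an inhibitor that TGF-beta itself induces, ranged from 6.61 in wild-type CD45RBhigh replicate 1 to 7.16 in CCR2-/- CD45RBhigh replicate 2. The CD45RBlow arrays, at 6.71 to 6.90, lay inside the range of the CD45RBhigh arrays. The subset difference was -0.05 (interval -0.32 to 0.22, adjusted p = 0.881), with 0.09 and -0.01 in wild-type replicates 1 and 2 and 0.16 and -0.45 in CCR2-/- replicates 1 and 2. No direction was shared between the pairs.

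Ski, which binds SMAD complexes and recruits corepressors, was at 8.35 and 8.61 in wild-type CD45RBhigh cells, 8.82 and 8.99 in wild-type CD45RBlow cells, 8.03 and 8.33 in CCR2-/- CD45RBhigh cells, and 8.91 and 8.89 in CCR2-/- CD45RBlow cells. All CD45RBlow arrays exceeded all CD45RBhigh arrays, with 8.82 and 8.61 as the nearest values. It rose by 0.57 (SE 0.10, interval 0.33 to 0.82, adjusted p = 0.0382, and 0.0145 with the replicate block). The 2 CD45RBlow groups had the same mean to 2 decimals, 8.90, and the CD45RBhigh groups stood at 8.48 ± 0.18 in wild type and 8.18 ± 0.21 in CCR2-/- cells (mean ± SD, n = 2 each). The Ski gap was 0.46 and 0.38 in wild type and 0.88 and 0.56 in CCR2-/- cells for replicates 1 and 2. Leaving out each array in turn kept the Ski difference between 0.50 and 0.65, and the call held only without CCR2-/- CD45RBhigh replicate 2 (adjusted p = 0.0259). Without any of the other 7 arrays its adjusted p ran from 0.0555 to 0.148.

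Skil encodes SnoN, a relative of Ski that TGF-beta signalling both degrades and re-induces. Its levels were 7.77 and 7.67 in wild-type CD45RBhigh cells, 7.85 and 8.02 in wild-type CD45RBlow cells, 7.86 and 7.62 in CCR2-/- CD45RBhigh cells, and 8.05 and 8.25 in CCR2-/- CD45RBlow cells. A single pair of values kept the subsets from separating, 7.85 in CD45RBlow and 7.86 in CD45RBhigh cells. The Skil difference was 0.31 (SE 0.10, interval 0.09 to 0.54, adjusted p = 0.142), positive in each pair of arrays, from 0.07 to 0.63. The CCR2-/- CD45RBlow group had the highest mean, 8.15 ± 0.14, followed by 7.93 ± 0.12 in wild-type CD45RBlow cells, and the CD45RBhigh means of 7.74 ± 0.17 and 7.72 ± 0.07 (SD, n = 2 each) lay within their spread.

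**Figure D2:**
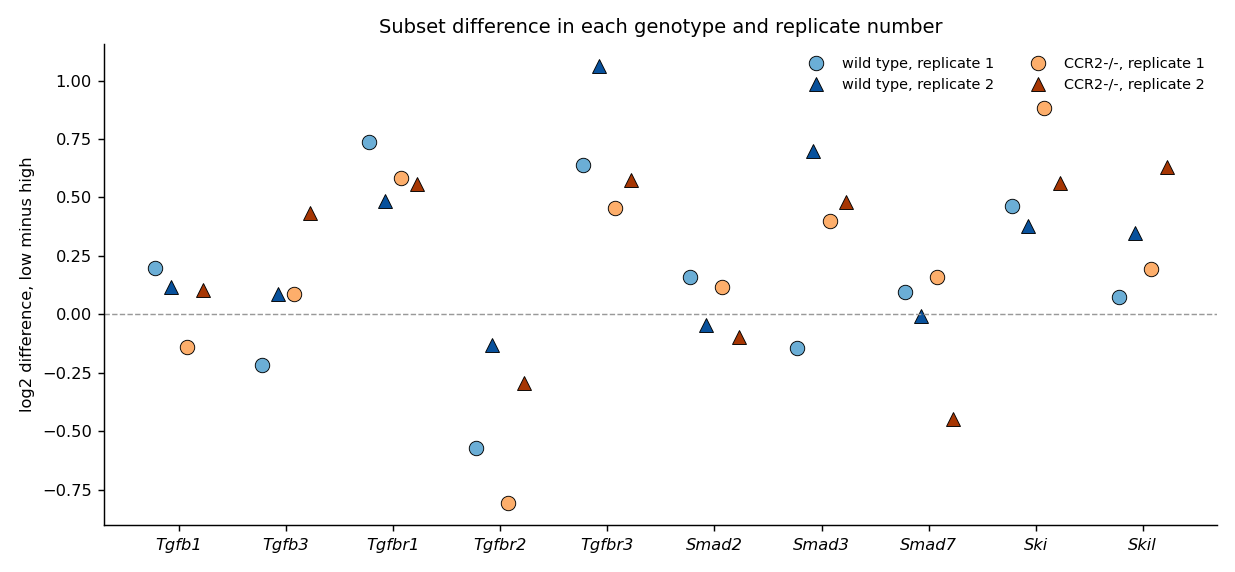
Log2 difference between CD45RBlow and CD45RBhigh arrays (vertical axis) of the same genotype and replicate number, 4 points for each of the 10 genes (horizontal axis), with the dashed line at 0. All 4 points lie above 0 for Tgfbr1, Tgfbr3, Ski and Skil and below 0 for Tgfbr2, while Tgfb1, Tgfb3, Smad2, Smad3 and Smad7 have points on both sides.

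Within wild type 0 of the 10 genes passed between subsets (limma), where 0.0888% of all genes passed, and 0 with the replicate block, where 0.77% passed. At an unadjusted p under 0.05 there were 3 of the 10, beside 1245 of all 13508 genes. Tgfbr3 came nearest, with a wild-type difference of 0.85 (SE 0.20, adjusted p = 0.225, and 0.0502 with the block). Within CCR2-/- cells 0 of 10 passed, against 0.333% of all genes. Here 4 of the 10 had an unadjusted limma p under 0.05, beside 1665 of all 13508 genes. With the block 1 passed, Ski, whose CCR2-/- difference was 0.72 (SE 0.15, adjusted p = 0.109, and 0.0435 with the block), in a fit that called 1.45% of all genes. The interaction, which asks whether the subset difference depends on genotype, was -0.34 (SE 0.28) for Tgfbr3 and 0.30 (SE 0.21) for Ski, both with an adjusted p of 1. A difference between the genotypes in these gaps was thus not shown for any of the 10 genes, and 0 genes of any kind passed the interaction test (0%, with 160 at an unadjusted p under 0.05).

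Between genotypes 0 of the 10 genes passed, and 0% of all genes, whether averaged over subsets (limma, 0 of the 10 and 521 of all genes at an unadjusted p under 0.05), in CD45RBhigh cells (1 and 354) or in CD45RBlow cells (0 and 298). The counts were also 0 with the replicate block. The widest averaged difference was that of Tgfbr3, 0.32 higher in CCR2-/- cells (SE 0.14, interval -0.01 to 0.64, adjusted p = 0.940). In CD45RBhigh cells Tgfbr3 differed by 0.49 (SE 0.20, adjusted p = 1), with gaps of 0.47 and 0.50 in replicates 1 and 2, and Ski by -0.31 (SE 0.15, adjusted p = 1), with -0.33 and -0.28. In CD45RBlow cells the same genes differed by 0.15 and -0.002. For Tgfb1 the averaged interval was -0.12 to 0.26 and for Smad2 -0.13 to 0.24 (both averaged over subsets), while for Smad3 it was -0.45 to 0.57. Within CD45RBhigh cells the intervals were wider, at -0.11 to 0.42 for Tgfb1 and -0.18 to 0.34 for Smad2.

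**Figure D3:**
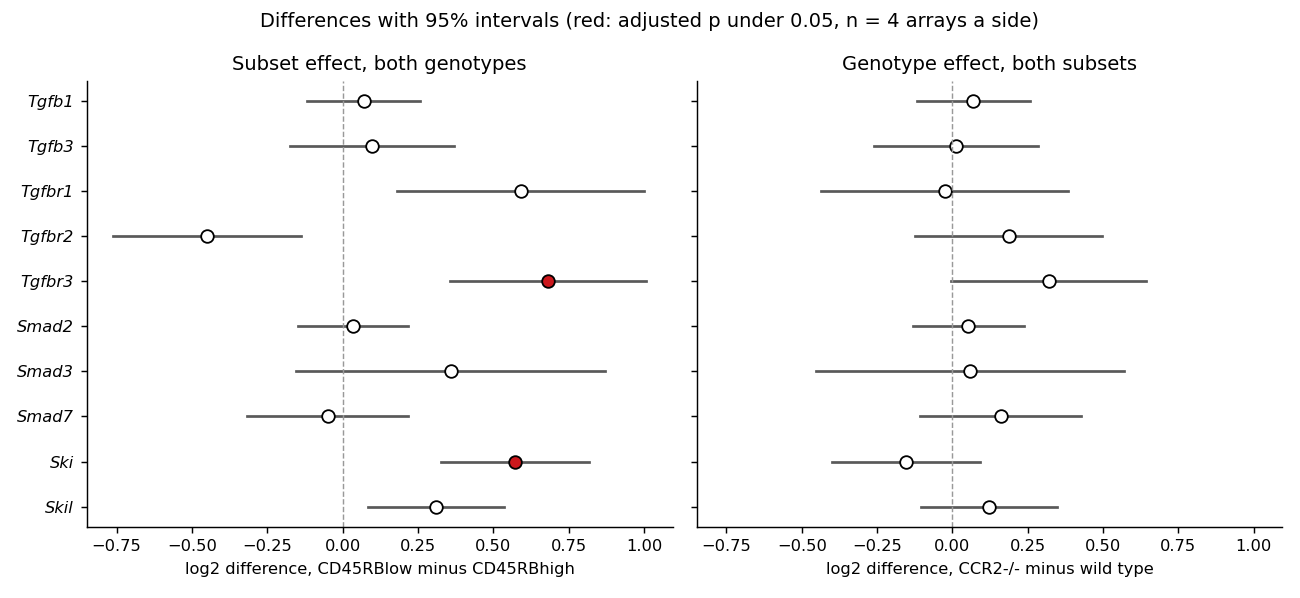
Differences of the 10 genes between subsets (left, CD45RBlow minus CD45RBhigh) and between genotypes (right, CCR2-/- minus wild type), each averaged over the other factor, on a log2 axis with bars for 95% confidence intervals and red points where the adjusted p was under 0.05. Tgfbr3 (0.68) and Ski (0.57) are the red points, and every interval on the right includes 0.

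Other genes of the pathway were read from 8 lists of 115 genes, of which 109 were on the array and 85 were tested. Between subsets 7 rose and 2 fell in CD45RBlow cells, beside 3.03% of all tested genes (1.1% higher, 1.93% lower). Their median difference was 0.07 beside -0.01 over all genes. Itgb8, an integrin subunit that frees TGF-beta from its latent complex, rose by 2.82 (SE 0.27, adjusted p = 0.00602), from 4.79 to 5.13 on CD45RBhigh arrays to 7.25 to 8.42 on CD45RBlow arrays. The CD45RBhigh values lay near the array medians and are not shown to be above background, so no exact fold is given. It was 1 of 6 tested genes of latency and activation. Lrrc32, which anchors latent TGF-beta on the surface of regulatory T cells, differed by 1.10 (SE 0.36, adjusted p = 0.159). Its CD45RBhigh values, 4.51 to 5.09, also lay around or under the array medians and overlapped the CD45RBlow values, 5.02 to 6.65. With single arrays left out the Lrrc32 difference ran from 0.69 to 1.51. Among 5 other ligands Inhba, which encodes an activin subunit, rose by 1.65 (SE 0.24, adjusted p = 0.0191), from 5.81 to 7.52 to 8.37 to 8.89.

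Among 8 other receptors of the family, Eng, which encodes endoglin and is a relative of betaglycan, rose by 0.64 (SE 0.10, adjusted p = 0.0263). Its CD45RBhigh arrays lay at 7.61 to 7.98 and its CD45RBlow arrays at 8.18 to 8.54. With the replicate block 4 of these 8 passed, in a fit that called 5.61% of all genes. The genes added by the block were the bone morphogenetic protein receptors Bmpr1a (0.39, adjusted p = 0.0477) and Bmpr2 (0.49, adjusted p = 0.0342), which rose, and the activin receptor Acvr1b (-0.37, adjusted p = 0.0465), which fell. None of 6 other SMADs and SMAD anchors passed, the smallest p being those of Smad1 (-0.15, adjusted p = 0.434) and Hgs (-0.13, adjusted p = 0.554).

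Of 20 genes for turnover and restraint of the signal 2 rose and 1 fell. Pmepa1, a TGF-beta-induced protein that sequesters receptor-regulated SMADs, rose by 0.69 (SE 0.11, adjusted p = 0.0286), from 7.87 to 8.28 to 8.71 to 8.96. Uchl5, a deubiquitinase, rose by 0.38 (adjusted p = 0.0412), and Usp11, another, fell by 0.61 (adjusted p = 0.0175). Ldlrad4, a relative of Pmepa1, differed by 0.71 (adjusted p = 0.0556) and rose in the fit with the replicate block (adjusted p = 0.0428). None of 14 nuclear partners passed (Runx1 0.32, adjusted p = 0.273; Jun -0.74, adjusted p = 0.332, but -1.15 and 0.0387 without CCR2-/- CD45RBhigh replicate 1, and -0.33 and 0.443 without replicate 2 of that group), nor any of 12 genes of SMAD-independent branches (Map2k6 -0.41, adjusted p = 0.135; Traf6 0.33, adjusted p = 0.144).

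Of 14 tested transcripts known to respond to signals of this family, 2 rose and 1 fell. Foxp3, the factor of regulatory T cells, rose by 3.05 (SE 0.30, adjusted p = 0.00627), and Id2, an inhibitor of E-protein transcription factors, by 1.56 (SE 0.15, adjusted p = 0.00586). Id3, its relative, fell by 0.51 (SE 0.08, adjusted p = 0.0245). With the replicate block Nt5e, which encodes the ectonucleotidase CD73, also rose (1.44, adjusted p = 0.0157), and Gadd45b fell by 0.69 (adjusted p = 0.0351). Nt5e lay at 4.41 to 5.01 on CD45RBhigh arrays and 5.02 to 7.14 on CD45RBlow arrays. The CD45RBhigh values of Nt5e lay around or under the array medians and are not shown to be above background. Across the 8 lists the block called 15 of the 85 genes, 11 higher and 4 lower, beside 5.61% of all genes. The calls of Itgb8, Id2 and Foxp3 held with any single array left out, at adjusted p up to 0.0377. The other calls were lost with some arrays left out, those of Inhba, Pmepa1 and Id3 in 6 of 8 cases, Eng in 5, Usp11 in 4 and Uchl5 in all 8. For the genes added by the block, leaving out single arrays gave differences of 0.33 to 0.45 (Bmpr1a), 0.39 to 0.58 (Bmpr2) and -0.42 to -0.33 (Acvr1b). These ranges were -0.88 to -0.50 for Gadd45b, 0.54 to 0.89 for Ldlrad4 and 1.10 to 1.78 for Nt5e. The count over the 85 genes was 3 without replicate 1 of wild-type CD45RBhigh, of wild-type CD45RBlow or of CCR2-/- CD45RBlow cells, and 4 without replicate 2 of either wild-type subset.

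Within wild type 0 of these 85 genes passed (limma) and 5 with the replicate block, where Itgb8, Id2, Foxp3 and Nt5e rose and Usp11 fell. Without and with the block, 0.0888% and 0.77% of all genes passed in wild type and 0.333% and 1.45% in CCR2-/- cells. At an unadjusted p under 0.05 in wild type there were 16 of the 85, beside 1245 of all 13508 genes. Within CCR2-/- cells Itgb8 (2.84, adjusted p = 0.0409) and Id2 (1.66, adjusted p = 0.0352) rose, and with the block Inhba and Foxp3 as well. That of Itgb8 was lost in 6 of 8 cases with an array left out (all but the wild-type CD45RBlow arrays, adjusted p up to 0.272), with array weights (0.174) and with no filter (0.0616). That of Id2 was lost in 5 of 8 (all but both wild-type CD45RBhigh arrays and CCR2-/- CD45RBhigh replicate 2, adjusted p up to 0.236) and with array weights (0.12). Between genotypes and in the interaction 0 of the 85 passed (limma). At an unadjusted p under 0.05 there were 3 in the averaged genotype comparison and 0 in the interaction, beside 521 and 160 of all genes.

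**Figure D4:**
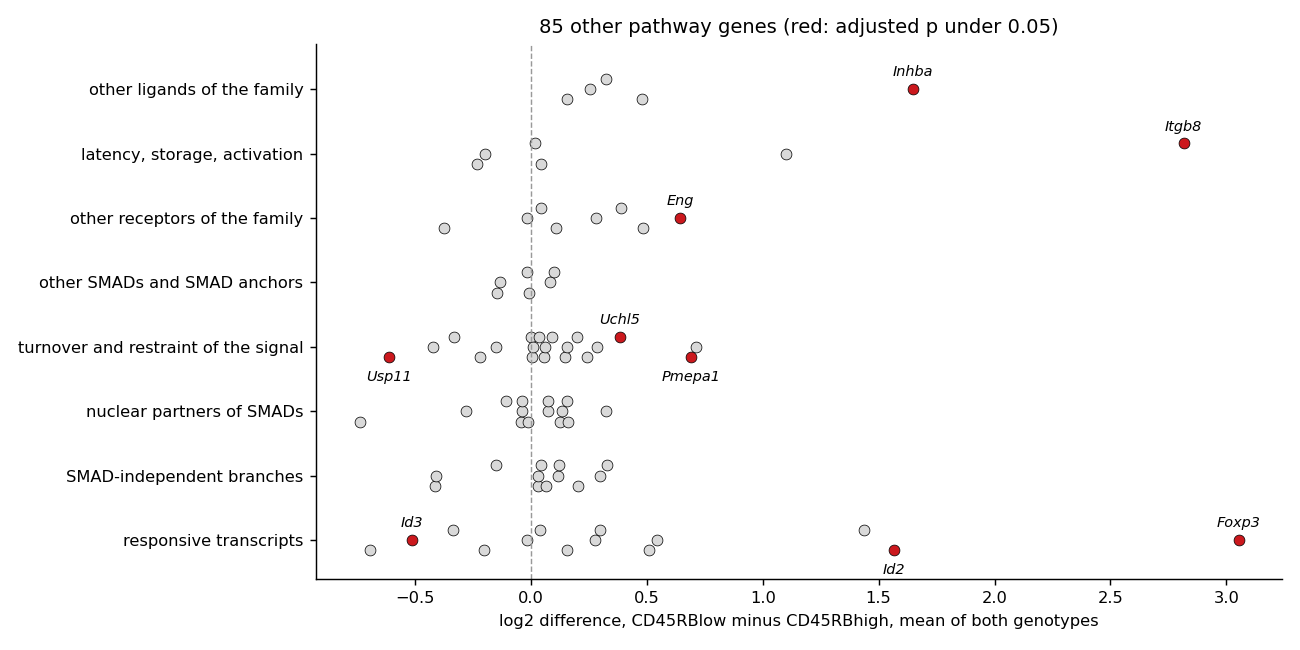
Log2 difference between CD45RBlow and CD45RBhigh cells, averaged over genotypes (horizontal axis), for 85 other pathway genes in 8 lists (rows, with vertical offsets inside a row only for legibility), red and named where the adjusted p was under 0.05. Foxp3 (3.05) and Itgb8 (2.82) lie farthest to the right, and the other SMADs lie close to 0.

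Markers of other cells moved with the subsets in part. In a sorted population, fewer cells of a type and less RNA per cell cannot be told apart. The mean level of 8 regulatory T cell markers was 6.63 to 6.97 on CD45RBhigh arrays and 7.58 to 8.34 on CD45RBlow arrays. Of the 8, 5 rose, so the mean moved the same way as Tgfbr3, Ski and Itgb8, but not every marker did. Tnfrsf18 was lower on every CD45RBlow array than on every CD45RBhigh array, the nearest values being 10.951 and 10.997, though it did not pass. Values of Nrp1 and Lrrc32 overlapped between the subsets. Foxp3 and Lrrc32 belong both to the regulatory T cell list and to the pathway lists. The mean of 7 B cell markers on the array was 5.26 to 6.10 on CD45RBhigh arrays and 5.004 to 5.12 on CD45RBlow arrays. Of these, 1 of 5 tested markers was lower. Cd79a differed mainly in replicate 1, at 4.99 and 5.86 on CD45RBhigh against 3.85 and 3.87 on CD45RBlow arrays. In replicate 2 it read 3.90 and 4.24 against 3.91 and 3.77, while Ighm was lower on every CD45RBlow array. The mean of 8 macrophage and monocyte markers was 5.19 to 5.49 on CD45RBhigh arrays against 5.05 to 5.06, with 1 of 3 tested lower. Of the 3 tested, Ctss lay at 9.22 to 9.97 on CD45RBhigh and 8.17 to 8.51 on CD45RBlow arrays. Values of Cd68 (7.16 to 8.55 and 6.88 to 7.54) and of Fcgr3 overlapped. Lyz2, Csf1r, Adgre1, Itgam and Cd14 were too dim to be tested. CD8 markers (Cd8a and its partner chain Cd8b1) averaged 6.16 to 6.84 on CD45RBhigh and 5.80 to 5.93 on CD45RBlow arrays, with 0 of 2 passing. Only Cd8b1 separated the subsets, at 7.76 to 8.78 against 6.97 to 7.38. Cd8a was dim and overlapped, at 4.51 to 4.91 against 4.39 to 4.63. The part of these cells in the results on Tgfbr1, Tgfbr2, Tgfbr3 and Ski was not tested. Means of dendritic cell (4.26 to 4.46), NK cell (4.31 to 4.64), neutrophil (4.36 to 4.58) and fibroblast and stromal markers (4.16 to 4.31) lay under the array medians in all groups. Of these lists 1, 3, 2 and 0 markers were bright enough to be tested, and none of those tested passed. The mean of 6 CD4 T cell markers was 11.19 to 11.43 throughout, and 0 of 5 erythroid markers were on the array under the listed symbols.

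By Pearson correlation over the 8 arrays, the tested genes most like Tgfbr3 were Slc9b2 (r = 0.977), Nck1 (0.960) and Elk4 (0.936), and those most like Tgfbr2 were C920006O11Rik (0.982), Rflnb (0.982) and Gpatch2l (0.981). These are the members with the most positive and the most negative subset difference. Each r is among the 3 highest of 13507 genes compared, of which 0.192% had an r above 0.9 with Tgfbr3 and 1.86% with Tgfbr2. The arrays behind each r share the split by subset and by replicate number. The subset differences of the 3 genes like Tgfbr3 were 0.48, 0.21 and 0.21 (adjusted p from 0.0524 to 0.211), and those of the genes like Tgfbr2 ran from -0.43 to -0.32 (adjusted p from 0.141 to 0.155).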

How the data were processed

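Biotin-labelled cDNA from 200 ng of total RNA was hybridised to 8 single-colour arrays. The table the authors deposited holds log2 expression for 41034 transcript clusters. The submitters' processing notes name RMA and Partek, with versions and options not given in the sources used here. They were used as deposited.

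The platform annotation gave 23521 clusters exactly 1 symbol, 1814 several and 15699 none, and clusters with several were not used. A gene was read from its cluster of highest mean. Genes at or above the 40th percentile of an array on at least 2 arrays were tested. Limma 3.58.1 in R 4.3.3 was fitted to all 8 arrays, 1 mean per group (4 residual degrees of freedom), with its default variance moderation, two-sided p-values and Benjamini-Hochberg adjustment over the 13508 genes tested. The number of arrays limits the precision, with a median SE of 0.10 for an averaged effect. The code was tested on simulated data.

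The 10 genes, the pathway lists and the tests were chosen with earlier results of these data known. From each list up to 4 genes that passed were named, largest difference first, or else the 2 with the smallest p. Lrrc32, Ldlrad4 and the genes added by the replicate block were named after their values were seen. Groups came from the sample titles, which give a number 2 to 4 samples, and the others were taken as replicate 1. Changes from replicate 1 to 2 correlated across genes between every 2 groups (0.11 to 0.53 for the 6 group pairs, each above 0.1). The numbers were therefore treated as pairing the arrays, which no label states. The main model has no term for the number.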

Additional observations from a re-analysis of the deposited data

How the results depend on the processing

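Alternatives were a replicate block, arrays scaled to a common median, no filter and a 60th percentile filter, the mean over a gene's clusters, array weights, trended robust variance, and each array left out, which leaves a group of 1 array that is assumed to vary like the others. Of the 10 genes, 2 passed between subsets, against 1 with median scaling or with no filter and 0 to 1 with an array left out. In CCR2-/- cells 1 passed with the replicate block. Over 1043 recomputed differences of the 10 genes, 16 lost a call, 2 gained one, 0 called values changed sign, and 54 uncalled ones did. Of the other pathway genes 9 passed between subsets, 15 with the replicate block and 3 to 11 with an array left out. In wild type the count was 0, but 5 with the block, 2 with median scaling, 4 with array weights, 3 with trended variance and 0 to 1 with an array left out. In CCR2-/- cells it was 2, but 4 with the block or median scaling, 3 with the 60th percentile filter or trended variance, 1 with no filter and 0 with array weights. Smaller shifts in the other counts of pathway genes and of all genes are not listed. The cause of these shifts was not tested. The block added Tgfbr1 between subsets and Ski within CCR2-/- cells and changed no other call of the 10 genes. Over all genes the subset count was 409, 758 with the block and 39 to 547 with an array left out; in wild type it was 12 (104 with the block, 24 with median scaling, 116 with weights, 31 with trend, 1 to 57 with an array left out) and in CCR2-/- cells 45 (196, 83, 7, 69 and 1 to 98). Genotype and interaction counts were 0 under all of these settings. Tgfb3 was dim enough to drop out of the 60th percentile filter. Median scaling moved the median difference over all genes by at most 0.05 in any comparison.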
